A study of Rattus norvegicus with 21 samples.

Results

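Rat pancreatic islets held for 24 h in high glucose with palmitate, a culture called glucolipotoxicity (GLT), were compared with islets held for 24 h in control medium. Of 21 RNA-seq libraries in the series, 6 entered the contrast, 3 of 24 h GLT (condition 4) and 3 of 24 h control (condition 3). The libraries were chosen by the number of the condition and paired by islet preparation, with no use of measured values. Islets came from Sprague Dawley rats. Each of 3 preparations pooled the islets of 8 rats and was split over the culture groups, so a replicate is a pool and not a single animal. Control medium held 11 mM glucose and no palmitate, and GLT medium held 27 mM glucose and 300 µM palmitate. None of the 6 libraries had received compound D or compound E, which were given at 300 nM in conditions 5 to 8. The age and sex of the rats are not given in the sources used here. Whole islets were sequenced, so fewer cells of a type and less RNA per cell cannot be told apart in any value given here.

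The name of the control group was disputed. In the deposited sample sheet condition 3 was the 24 h control and condition 2 the 3 h GLT group, while the sample records had these names exchanged. These 6 libraries were the ones on which sheet and record differed. The sheet was followed, and values with condition 2 as the control are given where they turn the sign of a gene's printed fold change. Genes printed without such a value may still have a much smaller change there. A1bg, a gene chosen after its values were seen, was at 0.865 to 1.41 CPM (counts per 1 M, with TMM scaling) in condition 3 and at 0.782 to 1.04 CPM in condition 4. It lay at 7.75 to 8.92 CPM in the 3 h control libraries of condition 1 and at 5.22 to 7.75 CPM in condition 2. The undisputed 3 h libraries of conditions 5 and 7 lay between 5.56 and 9.92 CPM, and the undisputed 24 h libraries of conditions 6 and 8 between 1.01 and 3.41 CPM. For this gene condition 3 therefore lay among the 24 h libraries. Since the gene was picked by its values, this does not test which names are right.

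Beta cells answer glucose by closing ATP-sensitive potassium channels, letting calcium in and releasing insulin from granules. Long exposure to high glucose together with a saturated fatty acid loads the endoplasmic reticulum (ER), where proinsulin folds, and raises fatty acid handling in mitochondria. The unfolded protein response and the integrated stress response (ISR) are the signalling routes known for such load: kinases phosphorylate eIF2α, the factor ATF4 is translated, and genes of amino acid supply, chaperones and stress regulators are transcribed. The genes below are ordered by these routes, then by beta cell function, then by the other cell types of an islet.

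The 6 libraries held between 22.3 and 40.2 M counts assigned to genes, and the insulin genes took 9.31% to 45.9% of them. The control library of preparation 2 stood apart from the other 20 libraries. Its reads with more than 1 alignment made up 23.4% of its column, against 4.92% to 8.51% elsewhere, and the ribosomal RNA precursor Rn45s took 0.0333% against 1.37% to 7.88%. Of 5936 genes with at least 10 CPM in each of the other 20 libraries, 137 (2.31%) lay more than 8-fold below the lowest of the other 20 in this library, and 20 of these were at 0 counts. No other library had such a gene by the same rule. Hspa8, the constitutive cytosolic chaperone gene, was at 50.3 CPM in it and at 2003 and 1875 CPM in the other control libraries. None of the 137 genes passed the test described next, with or without this library. Calls below are given with it and without it.

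At 24 h, 751 of 12576 genes tested (5.97%) differed between GLT and control at an adjusted p below 0.05, by edgeR's quasi-likelihood test with Benjamini-Hochberg adjustment over all genes tested. Of these, 416 (3.31%) were higher and 335 (2.66%) lower with GLT, and 371 changed at least 2-fold, 212 up and 159 down. All but 1 of the 751 moved the same way in all 3 preparations. Over all genes tested, 27.4% were higher and 27.2% lower in all 3. The 2 groups did not overlap in 694 of the 751. A gene picked because it passed is thus apt to show both traits, and neither adds support for it. Without the control library of preparation 2, 219 genes passed, 130 higher (1.04%) and 89 lower (0.709%). Of the 751 genes, 214 passed in both fits (28.5% of 751, 97.7% of 219), and all 751 kept their sign. The fits share all libraries but 1 and the 751 were picked because they passed, so the kept signs add no support. Their log2 fold changes without that library were a median of 0.934 times those with it, and their standard errors (SE) 1.14 times. The count was 305 without the preparation as a block, 15 without preparation 1 and 90 without preparation 3. Scaling by library size alone gave 292 calls, 67.8% of them higher against 55.4%. With condition 2 as the 24 h control, 1072 genes passed (457 up, 615 down), and 776 of them had the same sign as by the sheet. Among the 1072 were 225 of the 751, some with the opposite sign, such as Klf4. Of 77 named genes that passed by the sheet, 25 kept sign and call, 32 kept the sign only and 20 turned sign. Atf3 (log2 0.65, adjusted p = 0.222), Srxn1 (log2 0.2), Cpt1a (log2 0.25) and Tnfrsf11b (log2 -0.6) were among the 32. Paired log2 differences correlated across genes at r = 0.6 between preparations 1 and 3, and at 0.3 and 0.34 between preparation 2 and each of the others. This r is a description across genes, which are not independent.

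**Figure D1:**
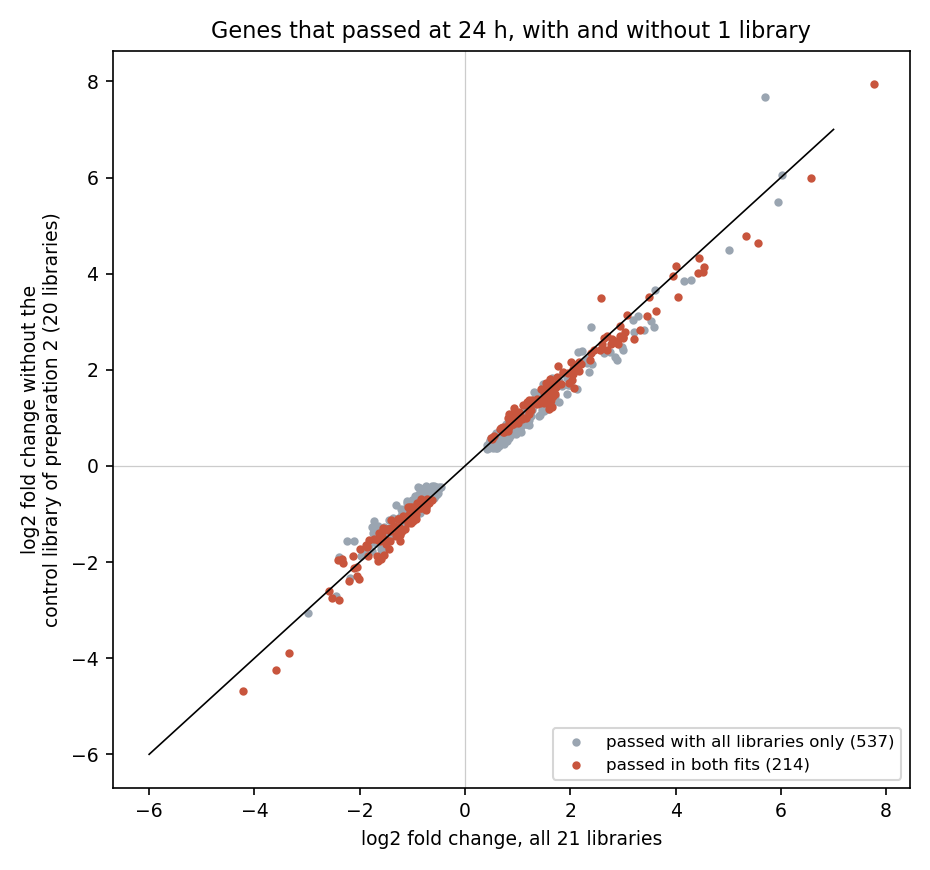
Fitted log2 fold change of the 751 genes that passed, with all 21 libraries in the fit (x) and without the control library of preparation 2 (y), with the line of equal values. All 751 genes lie on the same side of 0 in both, which is likely for genes picked because they passed. The 214 genes in red also passed without that library.

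ISR genes that passed were all higher with GLT. Of 40 tested, 10 rose and 0 fell (25.0% against 3.31% of all genes), 26 were higher and 2 lower in all 3 preparations, and their median log2 fold change was 0.35, against 0 over all genes. Atf3, a stress-induced transcription factor gene, was at 10.8, 4.09 and 5.49 CPM in the control libraries of preparations 1, 2 and 3 and at 43.0, 29.0 and 46.5 CPM with GLT. Every GLT library lay above every control library (log2 2.57, SE 0.33, adjusted p = 0.000677). Bcat1, which encodes the cytosolic branched-chain aminotransferase, went from 13.3, 7.3 and 19.4 CPM to 47.4, 38.3 and 96.2 CPM (log2 2.16, SE 0.19, adjusted p = 3.66e-05). Slc7a11, the cystine-glutamate exchanger gene, went from 18.5, 17.0 and 22.4 CPM to 87.5, 52.9 and 107.6 CPM (log2 2.07, SE 0.35). Ppp1r15a, which encodes GADD34, the phosphatase subunit that reverses eIF2α phosphorylation, went from 57.8, 49.4 and 75.7 CPM to 155, 133.8 and 235.6 CPM (log2 1.5, SE 0.23). In these genes the groups did not overlap. With condition 2 as the control, Ppp1r15a was at log2 -0.05, and 5 ISR genes rose and 6 fell.

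Other ISR regulators rose as well. Atf4 itself went from a mean of 330.0 to 479 CPM (log2 0.53, SE 0.15), Ddit3, which encodes CHOP, from 27.1 to 60.3 CPM (log2 1.18, SE 0.30) and Trib3, a pseudokinase gene, from 18.9 to 40.2 CPM (log2 1.08, SE 0.27). The amino acid transporter genes Slc7a5 (log2 0.56, SE 0.13) and Slc7a3 (log2 1.5, SE 0.38) also rose. Without the control library of preparation 2, 4 ISR genes passed: Bcat1, Atf3, Ppp1r15a and Slc7a11. Atf4 then had an adjusted p of 0.149, Ddit3 of 0.073 and Trib3 of 0.125, with log2 fold changes of 0.47, 1.29 and 0.97. Against condition 2 in place of condition 3, Atf4 (log2 -0.37), Ddit3 (log2 -0.04), Trib3 (log2 -0.96) and Slc7a5 (log2 -0.55) had the opposite sign. Among 20 aminoacyl-tRNA synthetases, which charge tRNAs and are known ATF4 targets in part, 16 were higher in all 3 preparations and 2 passed, Tars (log2 0.62, SE 0.15) and Wars (log2 0.56, SE 0.14). Neither passed without that library (adjusted p = 0.128 and 0.138).

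The ATF4 composite element, searched as TGATGNAA on both strands in 300 bases from 250 before to 50 after each gene's start, occurred in 3.82% of 27457 rat promoters of RefSeq (GRCr8). It occurred in 8 of the 35 ISR genes whose promoter was listed (22.9%), and in 2 of the 8 of these that rose. The windows around those 2 matches are shown because the element is the one through which ATF4 is known to act, with the match in capitals (on the opposite strand in both) and the sequence read along the gene.
Trib3, chr3:161275521-161275580, minus strand, match beginning at -21 from the start: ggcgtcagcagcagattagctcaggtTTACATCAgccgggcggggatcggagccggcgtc
Herpud1, chr19:10614858-10614917, minus strand, match at -184: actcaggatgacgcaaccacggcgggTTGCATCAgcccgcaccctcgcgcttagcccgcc
A match describes these letters only, and a promoter without one may carry the element outside this window.

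Among ER chaperone and ER-associated degradation genes, 6 of 32 rose and 0 fell (18.8% against 3.31%), and 22 were higher and 2 lower in all 3 preparations. Hspa5, which encodes BiP, the main ER chaperone, was at 3502, 3442 and 3505 CPM in control and at 6075, 5529 and 6259 CPM with GLT. The 3 control libraries lay close together and every GLT library above them, 1.71-fold higher (log2 0.77, SE 0.14, adjusted p = 0.00621). Herpud1, which encodes a membrane protein of ER-associated degradation and is also on the ISR list, went from 144.6, 163.9 and 172.6 CPM to 343.5, 305.1 and 419 CPM (log2 1.16, SE 0.24). P4hb, the protein disulfide isomerase gene, went from 1355, 1306 and 1664 CPM to 2226, 2320 and 2142 CPM (log2 0.64, SE 0.14). The co-chaperone genes Dnajb11 (log2 0.70, SE 0.17) and Dnajc3 (log2 0.61, SE 0.17) and the disulfide isomerase gene Txndc5 (log2 0.44, SE 0.11) completed the 6. Hspa5 alone passed without the control library of preparation 2 (log2 0.76, adjusted p = 0.0248). The others then had log2 fold changes of 0.41 to 1.09 and adjusted p-values of 0.0599 to 0.168. With condition 2 as the control, 2 genes of this list rose and 1 fell. Hspa5 was then at log2 0.39 (adjusted p = 0.0956), Herpud1 at 0.07, Dnajb11 at 0.08 and P4hb at 0.47 (adjusted p = 0.0435).

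NRF2 is a factor of antioxidant genes that is released from its inhibitor by oxidants. Of 33 genes on its list, 7 rose and 0 fell (21.2%), with a median log2 fold change of 0.66, 24 were higher and 4 lower in all 3 preparations, and 5 rose without that library. Srxn1, the sulfiredoxin gene, went from 122.4, 119 and 179 CPM to 269, 257 and 598 CPM (log2 1.36, SE 0.23). Sqstm1, which encodes the autophagy adaptor p62, went from 786, 634 and 956 CPM to 1367, 1144 and 2064 CPM (log2 0.92, SE 0.17). Txnrd1, the thioredoxin reductase gene, went from 109, 105.8 and 173 CPM to 194, 163 and 317 CPM (log2 0.78, SE 0.14), with the lowest GLT library below the highest control library. Nfe2l2, which encodes NRF2, rose by log2 0.49 (SE 0.12), and Slc7a11 is on this list as well. Prdx6 (log2 0.93, SE 0.21), a peroxiredoxin gene, rose and did not pass without that library (adjusted p = 0.0878). An antioxidant response element, searched as TGACNNNGC, occurred in 12.2% of all promoters and in 8 of 27 on this list (29.6%), of which Nfe2l2 was the single one among the 5 with a promoter that rose.

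**Figure D2:**
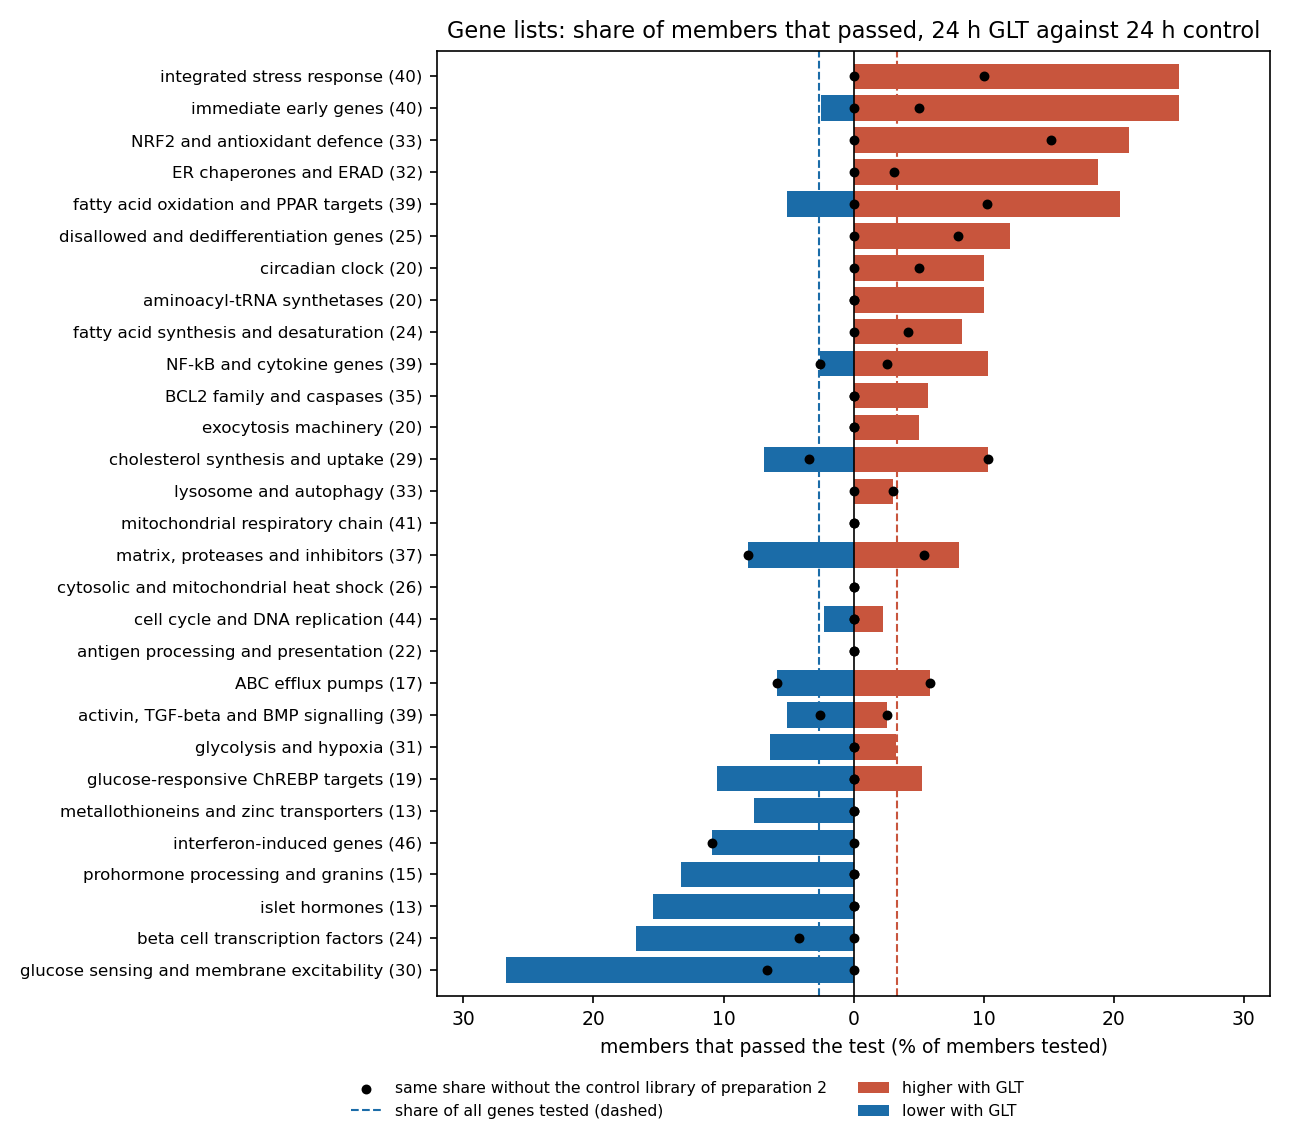
Share of the tested members of each of 29 gene lists that passed, higher with GLT to the right and lower to the left, with the number tested in parentheses after each list, dots for the share without the control library of preparation 2, and dashed lines at the share of all genes (3.31% higher, 2.66% lower). The ISR and immediate early lists reach 25.0% higher, and glucose sensing and membrane excitability reaches 26.7% lower, falling to 2 of 30 without that library.

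These counts depended on which libraries were in the fit. When any 1 of the 6 libraries was left out, the members that rose numbered 4 to 7 of the ISR list, 1 to 3 of the ER list, 4 to 6 of the NRF2 list, 2 to 6 of the immediate early list and 3 to 4 of the fatty acid oxidation list described next. Members that fell numbered 2 to 3 of the glucose sensing and excitability list, and 1 to 6 of the interferon list, with the lowest count when the GLT library of preparation 1 was left out.

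Fatty acid oxidation and PPAR target genes gave more calls upward than downward. Palmitate enters mitochondria through CPT1, and PPAR factors are known to sense fatty acids. Of 39 tested, 8 rose and 2 fell (20.5% and 5.13%), and 4 rose without the control library of preparation 2. Cpt1a, the carnitine palmitoyltransferase gene, went from 29.5, 36.3 and 33.2 CPM to 58.5, 60.2 and 73.9 CPM (log2 0.96, SE 0.16, adjusted p = 0.00345). Acot2, a mitochondrial acyl-CoA thioesterase gene with a near copy in Acot1, went from 12, 12.3 and 8.51 CPM to 54.2, 40.1 and 48.7 CPM (log2 2.16, SE 0.22). Cpt1a, Acot2 and Acsl4, an acyl-CoA synthetase gene (log2 0.81, SE 0.21), passed without that library.

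Further fatty acid genes that rose were Acadl (log2 0.64, SE 0.15), the long-chain acyl-CoA dehydrogenase gene, Slc25a20 (log2 0.67, SE 0.16), the carnitine-acylcarnitine carrier gene, Plin2 (log2 0.68, SE 0.19), a lipid droplet coat gene, and Angptl4 (log2 2.31, SE 0.54), a lipoprotein lipase inhibitor gene. Acadl lay at 23.6, 23.9 and 23.6 CPM in control and at 36.3, 37.2 and 37.2 CPM with GLT. Pdk2, a kinase gene that restrains pyruvate dehydrogenase, fell from a mean of 20.2 to 9.62 CPM (log2 -1.08, SE 0.27), and Ehhadh, a peroxisomal oxidation gene, from 3.36 to 1.76 CPM (log2 -0.92, SE 0.26). None of these 6 passed without the control library of preparation 2 (adjusted p = 0.0699 to 0.155).

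Cholesterol genes gave calls in both directions. Insig1, which holds the SREBP factors in the ER and is itself an SREBP target, was at 108.7, 149.2 and 117.6 CPM in control and at 373, 325 and 397 CPM with GLT (log2 1.55, SE 0.31, adjusted p = 0.0104). Cyp51, the lanosterol demethylase gene, went from 157.8, 237 and 175 CPM to 374, 364 and 323 CPM (log2 0.91, SE 0.23), and Fdps, the farnesyl diphosphate synthase gene, from a mean of 75.3 to 141.0 CPM (log2 0.91, SE 0.25). Abcg1, a cholesterol efflux transporter gene, went from 159, 146.3 and 217 CPM to 97, 95.4 and 122.6 CPM (log2 -0.72, SE 0.15), and Mylip, which encodes the ligase that degrades the LDL receptor, from 15.2, 17.6 and 17.7 CPM to 11.2, 11.1 and 10.7 CPM (log2 -0.61, SE 0.16). Both are known LXR targets. Of 29 cholesterol genes, 3 rose and 2 fell (10.3% and 6.9%, against 3.31% and 2.66% of all genes). A fold change above 0 was found in 24 of the 29, against 6223 of all 12576 genes tested. Without the control library of preparation 2, 3 rose and 1 fell, with Insig1, Cyp51 and Abcg1 among them. Among 24 fatty acid synthesis genes 2 rose (8.33%), Insig1 and Dgat2, the triglyceride synthesis enzyme gene (log2 1.18, SE 0.28). Fdps, Mylip and Dgat2 did not pass without that library (adjusted p = 0.113, 0.123 and 0.0931). With condition 2 as the control, Insig1 (log2 -0.46), Cyp51 (log2 -0.27) and Dgat2 (log2 -0.91) had the opposite sign.

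Immediate early genes are transcribed within minutes to hours of a stimulus. Of 40 tested, 10 rose and 1 fell at 24 h (25.0% against 3.31% upward), the median log2 fold change was 0.68, and 24 were higher and 6 lower in all 3 preparations. Myc went from 3.87, 2.85 and 9.91 CPM to 15.3, 8.53 and 23.9 CPM (log2 1.61, SE 0.27), and Crem, a cAMP-responsive factor gene, from 109.8, 92.2 and 112 CPM to 312, 277 and 272 CPM (log2 1.46, SE 0.26). These were the 2 that passed without the control library of preparation 2. Fosl2, an AP-1 subunit gene, went from 9.15, 7.12 and 16.5 CPM to 23.0, 24.7 and 36.2 CPM (log2 1.44, SE 0.29), and Klf4 from 4.07, 3.07 and 3.42 CPM to 12.9, 8.5 and 15.1 CPM (log2 1.76, SE 0.37). Fosl1, Nr4a2, Nr4a3, Dusp1, Dusp6 and Sik1 also rose, by log2 0.88 to 2.30, and Ctgf fell (log2 -1.42, SE 0.38). With condition 2 as the control, Crem (log2 -1.06), Fosl2 (log2 -1.56) and Klf4 (log2 -2.88) were lower with 24 h GLT, and so were Fosl1 (log2 -1.05), Nr4a2 (log2 -2.74), Nr4a3 (log2 -3.41), Dusp1 (log2 -0.65), Dusp6 (log2 -0.67) and Sik1 (log2 -1.01). On that list 1 gene then rose and 13 fell.

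Cytokine genes held both directions. Il23a, which encodes the p19 subunit of interleukin 23, had the smallest adjusted p of all genes named. It was at 4.53, 4.6 and 7.08 CPM in control and at 51.2, 42.0 and 94.2 CPM with GLT, 11.2-fold higher (log2 3.49, SE 0.26, adjusted p = 1.57e-05). Without the control library of preparation 2 the value was log2 3.51 (SE 0.32). Lif went from 1.52, 0.601 and 8.15 CPM to 4.79, 3.32 and 37.4 CPM (log2 2.12, SE 0.53), with preparation 3 far above the others in both groups. Cd69, a C-type lectin gene of activated lymphocytes, rose from 2.19, 0.12 and 4.49 CPM to 13.1, 6.87 and 17.6 CPM, and Il18 rose from a mean of 2.88 to 6.39 CPM (log2 1.14, and -0.11 with condition 2 as the control). Lif, Cd69 and Il18 did not pass without that library (adjusted p = 0.0988, 0.108 and 0.178). Il33, an alarmin gene, fell from 19.2, 7.3 and 19.1 CPM to 2.19, 2.16 and 3.2 CPM (log2 -2.53, SE 0.55). In all, 4 of 39 NF-kB and cytokine genes rose and 1 fell (10.3% and 2.56%, against 3.31% and 2.66% of all genes). Their median log2 fold change was -0.51, below 0 as the count of calls was not.

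Several of the largest rises began from levels near the floor. Gpr50, a gene related to melatonin receptors, had 0, 0 and 7 reads in control and 196, 163 and 257 with GLT (7.39, 6.29 and 9.14 CPM, log2 6.57, SE 0.79), and its fitted fold depends on how the zeros are treated (log2 10.71 without the control library of preparation 3). Fst, which encodes the activin-binding protein follistatin, had 3, 6 and 14 reads in control and 111, 184 and 148 with GLT (log2 4.45, SE 0.61). Abcb1a, which encodes a P-glycoprotein efflux pump and has a close copy in Abcb1b, went from 2.7, 0.631 and 5.89 CPM to 52.3, 30.4 and 93.7 CPM (log2 4.42, SE 0.44, adjusted p = 0.000131). Rorb, an orphan nuclear receptor gene, went from 0.782, 0.18 and 0.798 CPM to 6.75, 4.05 and 10.8 CPM (log2 3.62, SE 0.56). In all 4 genes every GLT library lay above every control library, and all passed without the control library of preparation 2.

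Plat combined a large rise with a high level. It encodes tissue plasminogen activator and went from 126.3, 49.9 and 240.8 CPM to 772, 806 and 1455 CPM, 7.99-fold (log2 3.00, SE 0.25, adjusted p = 2.53e-05). Its control level was lowest in preparation 2, and without that library the value was log2 2.66 (SE 0.17). Tac1, which encodes substance P, went from 0.508, 0.421 and 1.6 CPM to 6.67, 8.57 and 10.1 CPM (log2 3.45, SE 0.43), and Cck, the cholecystokinin gene, from 1.17, 1.56 and 1.2 CPM to 6.11, 6.84 and 11.3 CPM (log2 2.64, SE 0.45). Cd55, which encodes the complement decay-accelerating factor, went from 1.37, 1.23 and 1.43 CPM to 9.54, 7.84 and 13.9 CPM (log2 2.95, SE 0.37). Galnt3, an O-glycosylation enzyme gene (log2 2.91, SE 0.44), Ipcef1 (log2 3.21, SE 0.58) and Tdrd5 (log2 3.08, SE 0.45) completed the 12 largest rises, with groups that did not overlap. Of these 12, Cd69 alone did not pass without the control library of preparation 2. Against condition 2 in place of condition 3, Rorb (log2 -0.35) and Tac1 (log2 -1.31) had the opposite sign. Fst (log2 1.2, adjusted p = 0.162) and Galnt3 (log2 0.84, adjusted p = 0.228) did not pass there, and the rest of the 12 did.

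**Figure D3:**
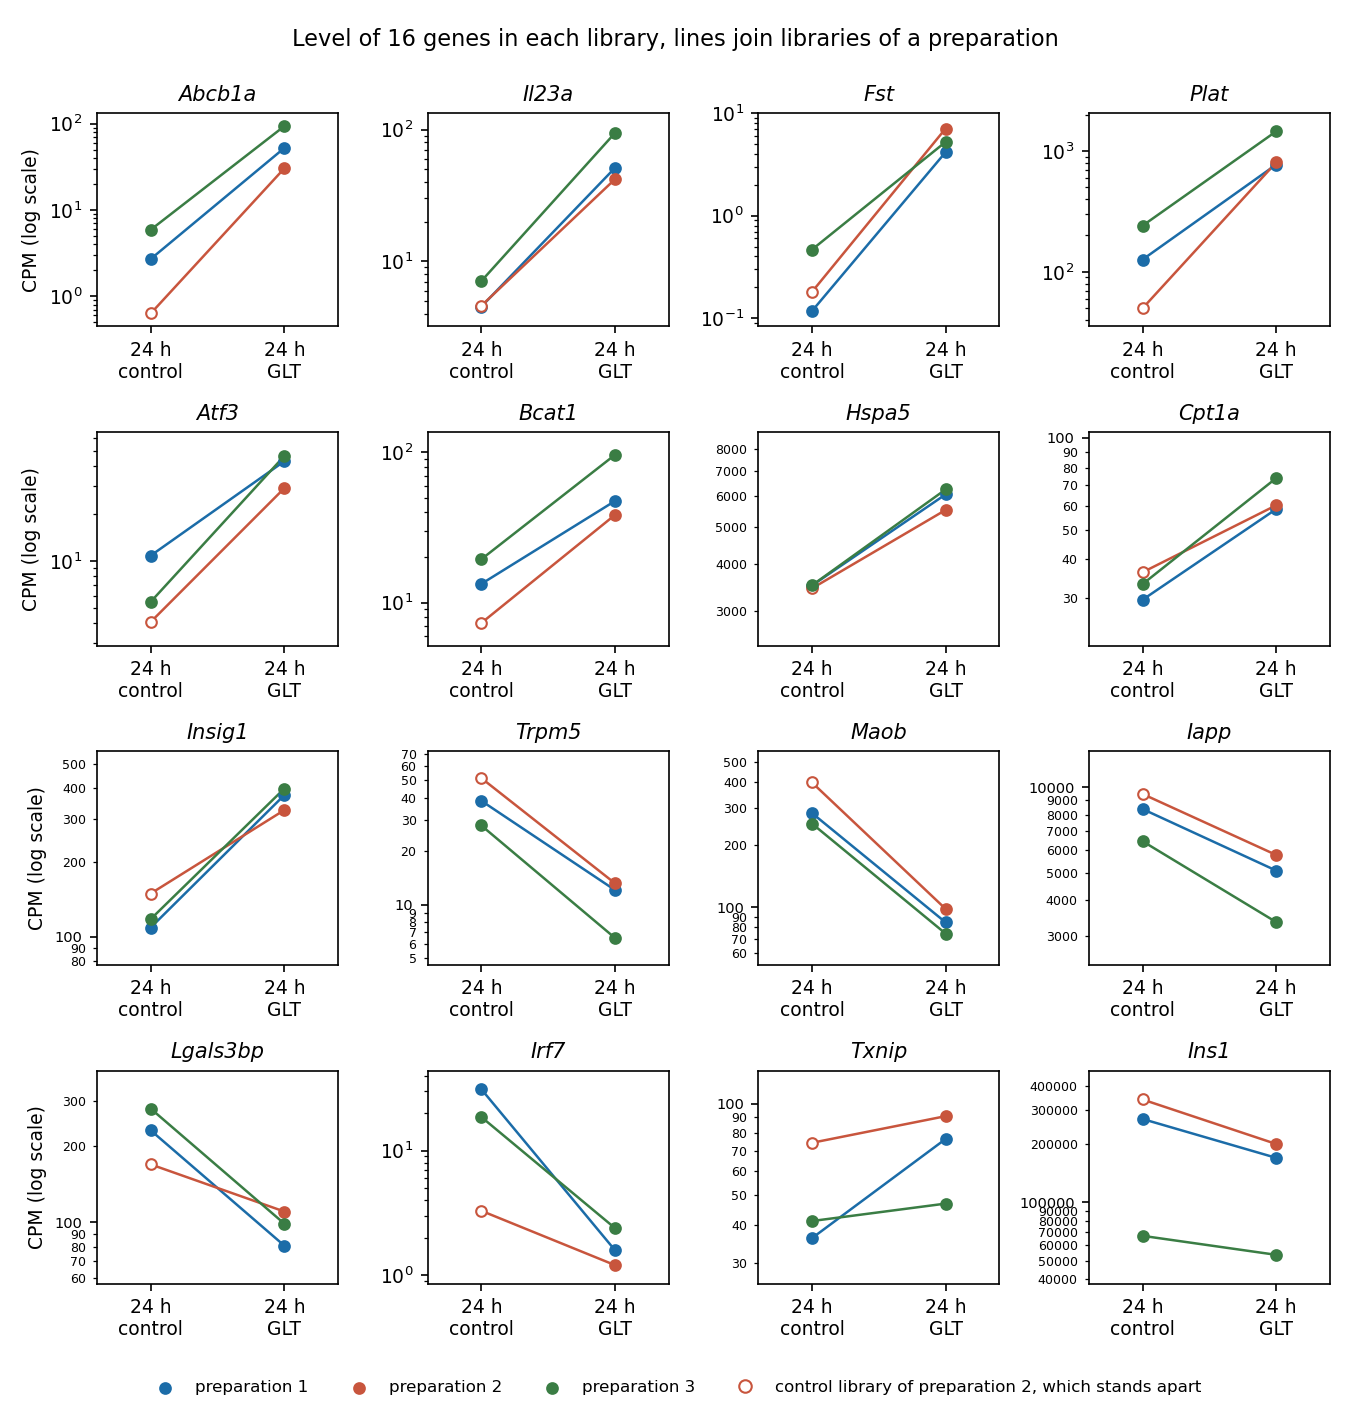
Level of 16 genes in CPM on a log axis in the 24 h control and 24 h GLT libraries, with a line for each preparation and an open point for the control library of preparation 2. Abcb1a, Il23a, Fst and Plat rise and Trpm5, Maob and Iapp fall in each preparation, while the Txnip and Ins1 groups overlap.

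The hormone genes were lower in most cases without passing, and the islet identity of the libraries was plain in their levels. Ins1 was at 270527, 341317 and 67187 CPM in control and at 170181, 200759 and 53565 CPM with GLT, and Ins2 at 99531, 212729 and 30036 CPM and at 53954, 64541 and 20441 CPM. Both were lower in every preparation, but the preparations differed more than the groups (log2 -0.63, SE 0.62, adjusted p = 0.616, and log2 -1.14, SE 0.57, adjusted p = 0.265). Their sequences are near copies, so reads could be split between them. Iapp, which encodes the amyloid peptide co-released with insulin, fell from 8376, 9464 and 6450.1 CPM to 5081, 5769 and 3346 CPM, 1.72-fold (log2 -0.78, SE 0.19, adjusted p = 0.0279). Ucn3, the urocortin gene of mature beta cells, fell from 225, 276 and 152.5 CPM to 121.4, 158.8 and 82.3 CPM (log2 -0.86, SE 0.24). Iapp and Ucn3 did not pass without the control library of preparation 2 (adjusted p = 0.0924 and 0.152).

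Other hormone genes gave no call. Gcg was at 20699, 30196 and 14374 CPM in control and at 21073, 22342 and 11515 CPM with GLT (log2 -0.24, SE 0.23, and 0.21 with condition 2 as the control). Sst (log2 -0.56, SE 0.49), Ppy (log2 -0.80, SE 0.59) and Pyy (log2 -0.72, SE 0.45) were lower in all 3 preparations, again with wide differences between preparations. Npy was at 167, 106.8 and 252 CPM in control and at 259, 586 and 492 CPM with GLT, with no overlap (log2 1.30, SE 0.38, adjusted p = 0.0543). Cartpt (log2 0.83, SE 0.40), Ghrl (log2 -0.10, SE 0.26) and Gal (log2 -0.26, SE 0.40) overlapped between groups. Vip reads came mostly from 1 library, with 283 reads in the control of preparation 1 and 1 to 20 in the other 5. Of 13 hormone genes tested, 2 fell (15.4%, against 2.66% of all genes) and 0 rose. Lower in all 3 preparations were 9 of the 13, against 27.2% of all genes. Txnip, the glucose-responsive arrestin gene, was at 36.1, 74.3 and 41.1 CPM in control and at 76.5, 90.9 and 46.9 CPM with GLT, higher in all 3 preparations without passing (log2 0.47, SE 0.33, adjusted p = 0.461). Its value with condition 2 as the control was log2 -0.41.

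Genes of islet cell identity and excitability gave calls in the downward direction. Of 24 islet transcription factor genes tested 4 fell and 0 rose (16.7% against 2.66%), and of 30 genes of glucose sensing and membrane excitability 8 fell and 0 rose (26.7%). Without the control library of preparation 2, 1 and 2 of these passed. Mlxipl, which encodes the glucose-responsive factor ChREBP, went from 76.5, 93.9 and 85.9 CPM to 44.1, 38.9 and 38.8 CPM (log2 -1.08, SE 0.29), and Rfx6 from 68.0, 58.2 and 70.2 CPM to 46.8, 41.0 and 43.1 CPM (log2 -0.59, SE 0.15). In Mlxipl and Rfx6 no GLT library reached a control library. Neither passed without the control library of preparation 2 (adjusted p = 0.164 and 0.0666).

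Among channels and receptors, Trpm5, a calcium-activated cation channel gene, went from 38.4, 51.5 and 27.9 CPM to 12.1, 13.2 and 6.51 CPM, 3.72-fold lower (log2 -1.89, SE 0.35). Kcnn2, a small-conductance potassium channel gene, went from 4.22, 4.3 and 2.89 CPM to 1.55, 1.74 and 1.67 CPM (log2 -1.19, SE 0.21). Trpm5 and Kcnn2 were the 2 that passed without the control library of preparation 2 (adjusted p = 0.0412 and 0.0349). The 2-pore channel genes Kcnk16 (log2 -0.86, SE 0.22) and Kcnk3 (log2 -0.83, SE 0.21), Kcnh6 (log2 -0.64, SE 0.18), the somatostatin receptor gene Sstr3 (log2 -0.86, SE 0.20), the glucagon receptor gene Gcgr (log2 -1, SE 0.27) and the granule zinc transporter gene Slc30a8 (log2 -0.89, SE 0.24) fell as well. Of 15 prohormone processing and granin genes 2 fell (13.3%, against 2.66% of all genes), Slc30a8 and Ptprn2, a granule membrane phosphatase-like gene (log2 -0.92, SE 0.21). Of 20 exocytosis genes 1 passed (5.0% upward, against 3.31% of all genes). It was Syt4, a synaptotagmin gene that rose from 755, 832 and 688 CPM to 1490, 1318 and 1101 CPM (log2 0.78, SE 0.19). None of these 8 passed without that library (adjusted p = 0.061 to 0.192). Against condition 2 in place of condition 3, Sstr3 (log2 0.27), Kcnk3 (log2 0.64), Kcnh6 (log2 0.21) and Syt4 (log2 -0.11) had the opposite sign.

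Of genes that are normally kept silent in beta cells or mark dedifferentiation, 3 of 25 rose and 0 fell: Myc, Cck and Slc16a1, the lactate and pyruvate transporter gene (2.43 to 4.75 CPM in control, 5.1 to 18.9 CPM with GLT, log2 1.48, SE 0.40). The list's median log2 fold change was -0.19. ChREBP target genes gave calls in both directions: Pklr, the liver-type pyruvate kinase gene, fell (log2 -0.87, SE 0.19) and Gpd1, the glycerol phosphate dehydrogenase gene, rose (log2 0.66, SE 0.17, and -0.32 with condition 2 as the control). Slc16a1, Pklr and Gpd1 did not pass without the control library of preparation 2 (adjusted p = 0.132, 0.069 and 0.0814). Maob, which encodes a monoamine oxidase, fell from 284, 399.5 and 253 CPM to 84.3, 97.9 and 74.4 CPM (log2 -1.86, SE 0.22, adjusted p = 0.000488). Tnfrsf11b, which encodes osteoprotegerin, fell from 93.3, 121 and 89.0 CPM to 27.2, 27.8 and 20.6 CPM (log2 -2, SE 0.30). Mycn (log2 -2.06, SE 0.35), the integrin gene Itgal (log2 -1.85, SE 0.25), Lrrc16b (log2 -1.82, SE 0.38) and the rhomboid protease gene Rhbdl2 (log2 -1.82, SE 0.31) were also among the 12 largest falls. Of these 12, Lrrc16b alone did not pass without that library (adjusted p = 0.0647). Against condition 2 in place of condition 3, Maob (log2 -0.83, adjusted p = 0.0261) and Rhbdl2 (log2 -1.54, adjusted p = 0.00809) passed. The rest of the 12 did not, among them Trpm5 (log2 -0.91, adjusted p = 0.122), Mycn (log2 -1.15, adjusted p = 0.0585) and Il33 (log2 -0.21, adjusted p = 0.872).

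**Figure D4:**
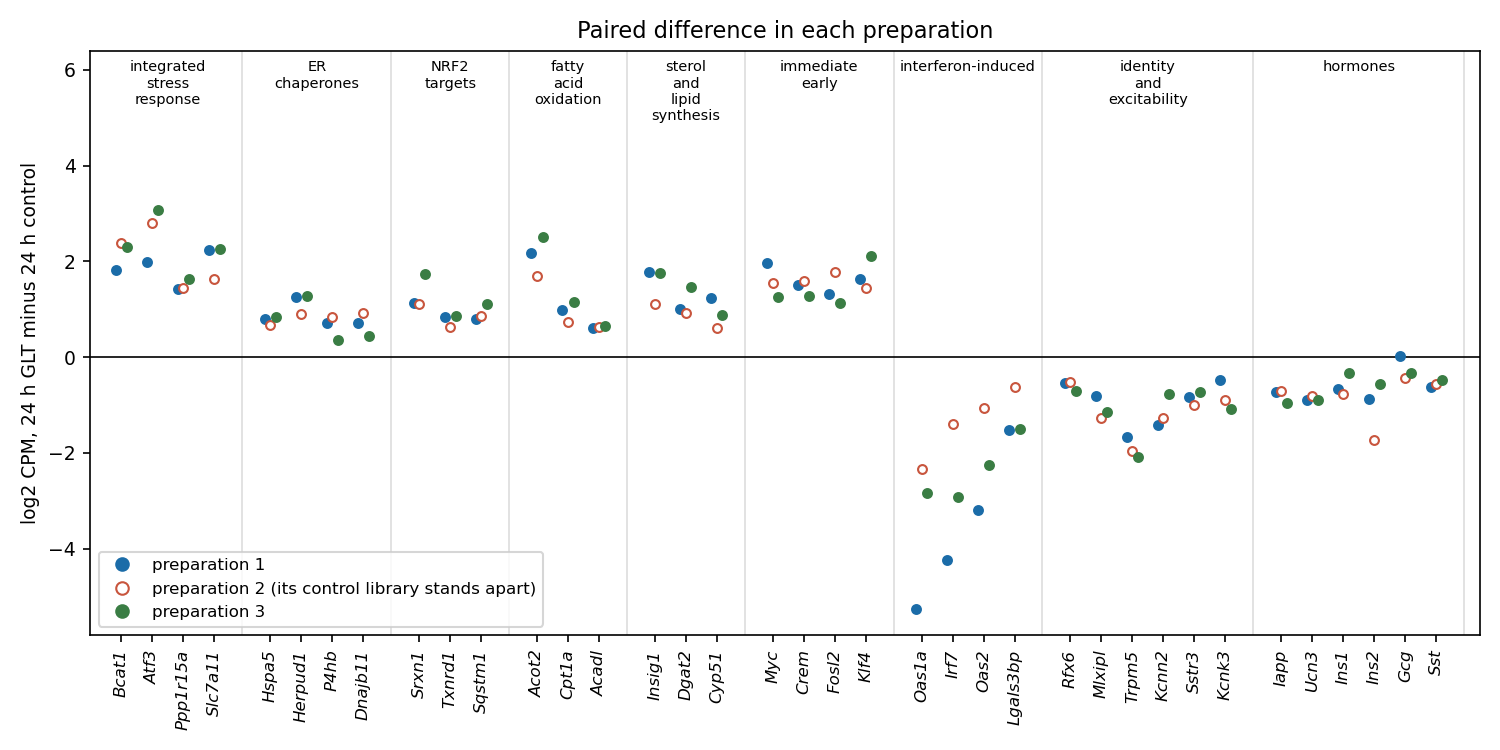
Difference in log2 CPM between 24 h GLT and 24 h control in each preparation for genes of 9 groups, open points for preparation 2, whose control library stands apart. Each gene of the stress, lipid and immediate early groups lies above 0 in all 3 preparations, and each interferon-induced and identity gene shown lies below 0.

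Interferon-induced genes are transcribed in answer to interferons and viral RNA. Of 46 tested, 5 fell and 0 rose (10.9% against 2.66%). Their median log2 fold change was -1.10, 41 had a fold change below 0 and 5 above it, and 26 were lower in all 3 preparations, against 27.2% of all genes. Irf7, the factor gene that amplifies interferon signals, was at 31.1, 3.28 and 18.6 CPM in control and at 1.58, 1.2 and 2.38 CPM with GLT (log2 -3.35, SE 0.84, adjusted p = 0.0314). Oas1a, an RNA-sensing synthetase gene of a family with near copies, had 250, 29 and 135 reads in control and 5, 3 and 16 with GLT (log2 -4.22, SE 0.91). Mx2 went from 30.8, 2.07 and 11.8 CPM to 1.36, 1.2 and 0.889 CPM (log2 -3.59, SE 0.92), and Oas2 from 5.4, 1.29 and 4.85 CPM to 0.528, 0.579 and 0.96 CPM (log2 -2.40, SE 0.45). Lgals3bp, a secreted galectin-binding protein gene, was the abundant member at 229.7, 169 and 280 CPM in control and 80.7, 110.0 and 98.5 CPM with GLT (log2 -1.23, SE 0.20, adjusted p = 0.00309). In preparation 2 the control levels of these genes lay nearest to the GLT levels. In conditions 1, 2 and 5 to 8 the median of Irf7 was 1.76 to 2.89 CPM and that of Mx2 1.19 to 1.96 CPM. Oas1a medians there were 0.106 to 0.779 CPM. For Irf7, Mx2 and Oas1a the GLT libraries lay near these levels, and the control libraries of preparations 1 and 3 far above them. The highest levels of all 3 genes in condition 1, the 3 h control, were also far above these medians. They were 15.9 CPM for Mx2, 11.1 CPM for Oas1a and more than 31.1 CPM for Irf7. For Irf7 and Oas1a this level exceeded every 24 h control library, so high levels were not particular to the 24 h control. In conditions 1, 2 and 5 to 8 the Lgals3bp and Oas2 medians were 107.4 to 175.7 and 0.709 to 1.73 CPM. They exceeded the GLT medians of 98.5 and 0.579 CPM.

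Without the control library of preparation 2 the same 5 genes passed, with log2 fold changes of -1.43 to -4.68. Of the 5 calls, 3 were lost without the control library of preparation 1: Mx2 was at log2 -1.98 (adjusted p = 0.193), Irf7 at -1.97 (adjusted p = 0.156) and Oas1a at -2.86 (adjusted p = 0.0572), while Oas2 (log2 -1.90, adjusted p = 0.0369) and Lgals3bp (log2 -1.14, adjusted p = 0.0175) passed. Leaving out any 1 GLT library also ended the call of these 3 genes (adjusted p = 0.0542 to 0.143), as did leaving out the control library of preparation 3 for Mx2 (adjusted p = 0.0511) and the GLT library of preparation 1 for Oas2 (adjusted p = 0.0605). Set against condition 2, Mx2 (log2 -0.24), Irf7 (log2 -0.43), Oas2 (log2 -0.70) and Oas1a (log2 -1.31) did not pass, and Lgals3bp (log2 -0.75, adjusted p = 0.0282) did, the single fall among the 46 beside 1 rise. Among the antigen presentation genes 0 of 22 passed, B2m lay at 936 to 1494 CPM in control and at 859 to 1393 CPM with GLT (log2 -0.13, SE 0.25, and 0.75 with condition 2 as the control), and RT1-A2, of a family with near copies, at 63.6 to 139 CPM and at 77.1 to 153.3 CPM. The interferon stimulated response element, searched as GAAANNGAA on both strands, occurred in 9.5% of all 27457 promoters and in 23 of the 35 interferon-induced genes whose promoter was listed (65.7%). It occurred in all 3 of the genes that fell and had a promoter listed. Their windows (GRCr8, match in capitals, read along the gene) are shown as the sequence these genes share, and Oas1a held 2 overlapping matches, of which the one nearer the start is capitalised.
Irf7, chr1:205800057-205800117, minus strand, match at -68 on the opposite strand: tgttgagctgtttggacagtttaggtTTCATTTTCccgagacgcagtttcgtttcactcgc
Oas1a, chr12:41330405-41330465, plus strand, match at -35: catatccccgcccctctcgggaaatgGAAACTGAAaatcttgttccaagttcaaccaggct
Lgals3bp, chr10:104127864-104127924, minus strand, match at -50: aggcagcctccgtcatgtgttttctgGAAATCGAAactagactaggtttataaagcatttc

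Summed markers of macrophages, stellate, endothelial, delta, PP, Schwann, T and B cells were lower with GLT in all 3 preparations. Those of alpha cells were lower in 2, those of acinar and red cells in 1, and those of ductal cells were higher in all 3. The summed level of 18 macrophage markers was 101.4 to 138.2 CPM in control and 66.3 to 88.0 CPM with GLT, lower in all 3 preparations, with 0 of 18 passing and none at 0. For 14 stellate cell markers the sum was 1296 to 1782 CPM in control and 683 to 1022 CPM with GLT, with none at 0. Of the 14, 2 fell (14.3%, against 2.66% of all genes): Col1a1, the fibrillar collagen gene (log2 -1.45, SE 0.34), and Acta2, the smooth muscle actin gene (log2 -1.57, SE 0.41). Col1a1 passed without the control library of preparation 2 (adjusted p = 0.0221) and Acta2 did not (adjusted p = 0.0652). Col1a2 of this list is among the 137 genes far below the rest in that library, at 0.331 CPM against at least 50.6 CPM elsewhere. The lowest control sum came from that library. Col1a2 was at log2 -0.57 (SE 1.04) with it and at -1.33 (SE 0.32) without it, and passed in neither fit. The part of these cells in the lower interferon and matrix genes was not tested.

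Endothelial markers summed to 125.3 to 179 CPM in control and 64.4 to 152.8 CPM with GLT, lower in all 3 preparations with 0 of 17 passing. Of 13 alpha cell markers 4 fell (30.8%, against 2.66% of all genes), Fap and Gc among them. The sum of the 13, which is mostly Gcg, was 15646 to 31446 CPM in control and 12282 to 23869 CPM with GLT, so the groups overlapped. Of 9 delta cell markers Rbp4 fell, and their sum was 606.0 to 2253 CPM in control and 426.7 to 1532 CPM with GLT, so the groups overlapped. PP cell markers summed to 788 to 1975 CPM in control and 375 to 1264 CPM with GLT, so the groups overlapped, with Aqp3 at 0 in all 6 libraries. Acinar markers summed to 113.1 to 160.8 CPM in control and 126.1 to 153.1 CPM with GLT, with Try10 at 0. Ductal markers summed to 442 to 483 CPM in control and 496 to 564 CPM with GLT, with no overlap, and of 10 tested Car2 rose. Fap, Gc, Rbp4 and Car2 did not pass without the control library of preparation 2 (adjusted p = 0.0708 to 0.113). T cell, B cell and red cell markers summed to at most 11.8, 0.24 and 1.52 CPM, with Cd3d, Cd3g, Ms4a1, Cr2 and Alas2 at 0 in all 6 libraries. The B cell sums thus lay near the floor in both groups.

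Matrix genes were mostly lower, while 3 of them rose. Of 37 tested, 26 were lower in all 3 preparations and the median log2 fold change was -0.61. Col1a2 is on this list too, and without the control library of preparation 2 the median was -0.60. By the test 3 rose and 3 fell (8.11% each, against 3.31% and 2.66% of all genes). Col1a1, Postn, the periostin gene (log2 -0.78, SE 0.17), and Cilp, a cartilage matrix gene (14.8, 15.2 and 13.7 CPM in control, 3.96, 3.55 and 0.747 CPM with GLT, log2 -2.58, SE 0.51), fell, and all 3 passed without the control library of preparation 2. Plat, Col18a1, a basement membrane collagen gene (log2 0.99, SE 0.19), and Fn1, the fibronectin gene (mean 608.0 to 1297 CPM, log2 1.10, SE 0.27), rose, and Fn1 did not pass without that library (adjusted p = 0.119). In activin and TGF-beta signalling Fst rose, and the ligand gene Tgfb2 (41.6, 47.1 and 29.2 CPM to 23.7, 16.3 and 15.8 CPM, log2 -1.09, SE 0.17) and the inhibitory Smad7 (log2 -0.92, SE 0.24) fell, of which Smad7 did not pass without it (adjusted p = 0.159). Against condition 2 in place of condition 3, Cilp (log2 0.56), Col1a1 (log2 0.49) and Postn (log2 0.42) had the opposite sign.

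Other groups gave few calls, to be read beside the 3.31% of all genes that rose and the 2.66% that fell. Of 41 subunits of the respiratory chain 0 passed, and 31 had a fold change above 0, with Atp5b at 653 to 840.5 CPM in control and 806 to 998 CPM with GLT (log2 0.29, SE 0.17). Of 26 cytosolic and mitochondrial heat shock genes 0 passed (median 0.18), with Hsp90ab1 at log2 0.45 (SE 0.15, adjusted p = 0.0938). Of 31 glycolysis and hypoxia genes, Ldhb rose (19.5, 21.5 and 19.7 CPM to 48.9, 54.5 and 44.1 CPM, log2 1.28, SE 0.26) and Ndrg1 (log2 -0.86, SE 0.18) and Pfkm (log2 -0.49, SE 0.14) fell. The shares were 3.23% upward and 6.45% downward. Tpi1, Eno1 and Eno2 of this list are among the 137 genes far below the rest in the control library of preparation 2, and its median was 0.47 with that library and 0.31 without it. Of 35 BCL2 family and caspase genes 2 rose (5.71%), with Casp12 (log2 1.66, SE 0.47, and 2.52 without the control library of preparation 1) among them. Of 44 cell cycle genes Mcm4 rose (log2 0.64, SE 0.18) and Kif20a fell (log2 -0.66, SE 0.18), 2.27% each way. In the clock list Nfil3 (log2 1.14, SE 0.24) rose beside Rorb. None of Ldhb, Ndrg1, Pfkm, Casp12, Mcm4, Kif20a and Nfil3 passed without that library (adjusted p = 0.0568 to 0.197), where Mcm4 was at log2 0.41. Against condition 2 in place of condition 3, Ldhb (log2 -0.84), Ndrg1 (log2 0.15), Pfkm (log2 0.20), Mcm4 (log2 -0.25) and Nfil3 (log2 -0.64) had the opposite sign.

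The change at 24 h was set against that at 3 h, 3 h GLT against 3 h control by the sheet, in which 290 of 12576 genes (2.31%) passed. The difference between the 24 h and the 3 h effects was tested as an interaction, a contrast that is the same under the sheet and the record. It passed for 9 genes (0.0716%), with 1050 at an unadjusted p below 0.05. Leaving out the control library of preparation 2 gave 9 genes, 7 of them among these 9, and leaving out preparation 1 or 3 gave 0. Abcb1a changed by log2 4.42 (SE 0.44) at 24 h and by 0 (SE 0.42) at 3 h, a difference of 4.41 (SE 0.58, adjusted p = 0.00576). Il23a changed by 3.49 at 24 h and by -0.49 at 3 h, and Bcat1 by 2.16 and 0.20. The annexin gene Anxa3 was at 3.09, 1.14 and 2.66 CPM in 24 h control and at 13.0, 12.1 and 18.2 CPM with 24 h GLT, with log2 2.69 at 24 h and -0.14 at 3 h. P2rx3, an ATP-gated channel gene, fell at 24 h (log2 -1.42, SE 0.17) and stood at -0.04 at 3 h. Under the names of the record these 5 genes also passed at 24 h in the same direction, at log2 3.97 for Abcb1a, 3.13 for Il23a, 2.04 for Bcat1, 3.71 for Anxa3 and -0.70 for P2rx3.

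The other 4 genes were high in condition 2, the group whose name is disputed. The mean level in condition 2 was 102.8 CPM for Ypel4, 196.6 CPM for Gprc5b, 84.7 CPM for Hps4 and 233.5 CPM for Dos, while conditions 1, 3 and 4 lay at 9.23 to 17.5, 63.5 to 81.0, 29.3 to 32.4 and 54.1 to 91.3 CPM. By the sheet this is a rise at 3 h: Gprc5b was at log2 -0.33 (SE 0.12) at 24 h and 1.28 at 3 h, Ypel4 at -0.40 and 2.57, Hps4 at 0 and 1.39, and Dos at 0.75 and 1.94, of which Dos alone passed at 24 h. By the record it is a fall at 24 h, with 24 h effects of log2 -1.64 for Gprc5b, -3.49 for Ypel4, -1.54 for Hps4 and -1.37 for Dos, all of which passed, so that Dos turned sign. Most named genes gave no call in this test. Gpr50 was at log2 6.57 at 24 h and 0.62 at 3 h (difference 5.95, SE 1.26, adjusted p = 0.143), and Klf4 at 1.76 and 3.90 (difference -2.14, SE 0.51, adjusted p = 0.184). Cpt1a (0.96 and 1.04) and Tac1 (3.45 and 3.03) had close values at both times, with SE of the difference of 0.22 and 0.55. Hspa5 was at log2 0.77 at 24 h and 0.20 at 3 h (difference 0.57, SE 0.20, adjusted p = 0.398), and Lgals3bp at -1.23 and -0.05 (difference -1.18, SE 0.27, adjusted p = 0.179).

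**Figure D5:**
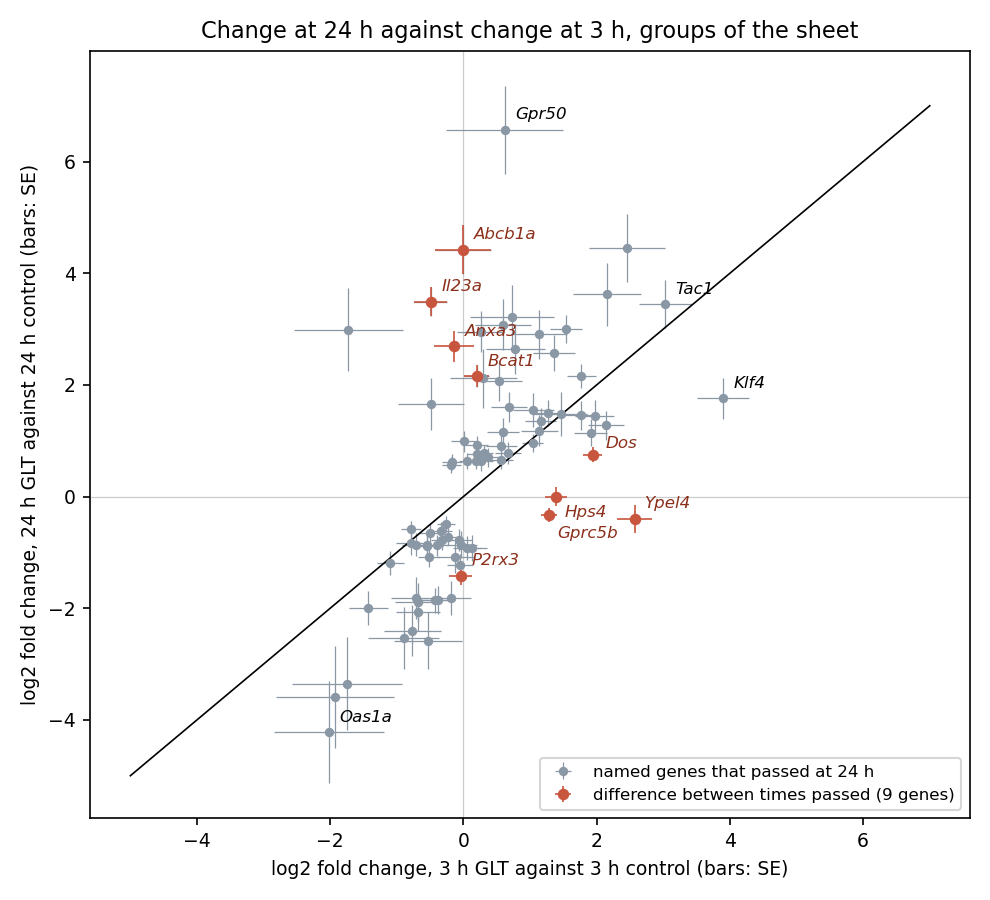
Log2 fold change of 24 h GLT against 24 h control (y) and of 3 h GLT against 3 h control (x), groups named by the sheet, bars for SE and the line of equal values. The 9 genes in red passed the test of the difference: Abcb1a, Il23a, Anxa3 and Bcat1 lie high at 24 h and near 0 at 3 h, and Ypel4, Gprc5b, Hps4 and Dos lie to the right of the line.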

How the data were processed

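Total RNA of whole islets was sequenced as 100 bp paired reads. Per the labels, the authors used TopHat2 2.0.3 with Bowtie2 2.0.0 for mapping (rn5) and HTSeq for counting per gene. The deposited values are raw counts of 17025 genes. A further 5 entries without a gene name entered neither library sizes nor tests. The strand setting and the annotation are not given in the sources used here, so overlapping genes and near copies are uncertain. Reads outside genes made up 10.3% to 18.7% of a column.

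Counts were tested with edgeR 4.0.16 (R 4.3.3): all 21 libraries, a term per condition, preparation as a block, TMM scaling, filterByExpr, glmQLFTest, 2-sided, Benjamini-Hochberg over 12576 genes, threshold 0.05. Preparations pair the groups because both came from the same pooled rats. Residuals of the paired libraries from a fit of conditions alone correlated at 0.0666, 0.179 and 0.464. Paired log2 CPM used a prior count of 2. Replicates are pools. The p-values rest on the residual spread of all 21 libraries after the terms for condition and preparation, an estimate shared by all conditions. Named genes were the 12 largest rises and 12 largest falls with at least 5 CPM in a group and 1 direction in all 3 preparations, per list the 4 members of smallest adjusted p among those that passed (or, if none did, the 2 most abundant), the hormone genes and Txnip; further members that passed are given by their values, and a few genes are not reported here. The lists (29 pathway, 12 cell type; 48 of 1019 symbols not matched), the members and the rule were chosen with earlier results of these data known. Promoters came from RefSeq (GRCr8) and matched 10199 of the genes tested. Alternatives were DESeq2 1.42.0, other scalings, filters, fits and libraries. The procedure was tested on simulated data.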

Additional observations from a re-analysis of the deposited data

Results flagged for a closer look

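The 24 h and the 3 h effect of GLT differed by an interaction test for 9 genes, and the values here are the 24 h effect minus the 3 h effect on the log2 scale, with edgeR's adjusted p. It was 4.41 for Abcb1a (adjusted p = 0.00576), 3.97 for Il23a (adjusted p = 0.000156), 2.84 for Anxa3 (adjusted p = 0.0102) and 1.97 for Bcat1 (adjusted p = 0.00587). In these 4 genes the 3 h effect lay between -0.49 and 0.20, and every 24 h GLT library lay above every 24 h control library.

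The value was -2.97 for Ypel4 (adjusted p = 0.0023), -1.61 for Gprc5b (adjusted p = 0.000901), -1.39 for Hps4 (adjusted p = 0.0433), -1.38 for P2rx3 (adjusted p = 0.0459) and -1.19 for Dos (adjusted p = 0.0296). P2rx3 fell at 24 h under both sets of names. The other 4 had their larger change at 3 h by the sheet and at 24 h by the record, where the 24 h effects were log2 -3.49 for Ypel4, -1.64 for Gprc5b, -1.54 for Hps4 and -1.37 for Dos, which is 0.75 by the sheet. Without preparation 1 or without preparation 3, 0 genes passed this test (575 and 664 at an unadjusted p below 0.05). DESeq2 called 109 with all libraries.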

How the results depend on the processing

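The 751 calls became 305 with no replicate block, 292 with library size only (67.8% higher, against 55.4%; the median of all genes moved to 0.08), 1285 with DESeq2, 357 in a fit of the 6 libraries, 614 with no filter and 1037 without the compound E library of preparation 1. Leaving out the control library of preparation 1, 2 or 3 gave 341, 219 or 388, the GLT library 192, 261 or 266, and 1 preparation 15 (without preparation 1), 455 (2) and 90 (3). The 219 calls without the control library of preparation 2 became 58 with no replicate block, 78 with library size only and 737 with DESeq2. The 9 interaction calls became 3, 5 and 109, and 0 to 11 with libraries or preparations left out (5 without the control library of preparation 3). These settings for the 219 calls were chosen after seeing the data.

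Of 77 named genes that passed, 29, 33 and 24 lost the call without the control library of preparation 1, 2 or 3, 40, 30 and 34 without the GLT library, 31 with no replicate block, 32 with library size only, 36 with 6 libraries, 71, 20 and 55 without preparations 1, 2 and 3, and 0 with DESeq2. No sign changed in these, which is likely for genes picked because they passed in a fit that shares most libraries. With condition 2 as the control 1072 genes passed (457 higher, 615 lower). Among these were 225 of the 751, in either direction. Of the 77 named genes, 25 then kept sign and call, 32 kept the sign and lost the call, and 20 signs turned: Rorb -0.35, Tac1 -1.31, Syt4 -0.11, Ppp1r15a -0.05, Insig1 -0.46, Dgat2 -0.91, Cyp51 -0.27, Gpd1 -0.32, Ldhb -0.84, Crem -1.06, Fosl2 -1.56, Klf4 -2.88, Mcm4 -0.25, Nfil3 -0.64, and Cilp 0.56, Sstr3 0.27, Kcnk3 0.64, Ndrg1 0.15, Pfkm 0.20 and Postn 0.42. The cause was not tested.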

Other observations

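The lists not yet described gave few calls, beside 3.31% of all genes that rose and 2.66% that fell. Of 33 lysosome and autophagy genes, Sqstm1 alone rose (3.03%) and the median log2 fold change was 0.01. Of 13 metallothionein and zinc transporter genes, Slc30a8 alone fell, while 10 had a fold change above 0 (median 0.26). Of 17 ABC pump genes, Abcb1a rose and Abcg1 fell (5.88% each), with a median of -0.10, and both passed without the control library of preparation 2. Of 20 clock genes 2 rose (Rorb and Nfil3), and 11 were higher in all 3 preparations. Schwann cell markers summed to 37.6 to 47.8 CPM in control and 33.5 to 34.9 CPM with GLT, lower in all 3 preparations, with 0 of 10 passing by edgeR.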
